A study of Mus musculus with 5 samples.

Results

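The factors described here are 9 transcription factor genes of the early pancreas, chosen by name: Pdx1, Ptf1a, Nkx6-1, Sox9, Onecut1, Onecut2, Mnx1, Prox1 and Hhex. All 9 were found by their gene symbol in the platform annotation, among 18193 genes named on the array, and they had 17 of the 34945 singly named probe sets. The cultures were mouse embryonic stem cells differentiating towards pancreas on plates coated with gelatin, and 1 Affymetrix array was run for each of 5 of them. Without MPA there were cells grown for 5 days, for 6 days and for 8 days, here called the controls. With MPA, at 2 µM, there were cells exposed from day 5 and collected at day 6 (1 day of exposure) and at day 8 (3 days of exposure). The labels give neither the stem cell line nor the full name of MPA, and name no vehicle for the controls. No group was replicated, so each difference is a size without an error, limited in precision by the number of arrays.

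In the embryo, the pancreas forms from buds of the foregut endoderm. Hhex and Mnx1 act early, in patterning the endoderm and in the outgrowth of the buds. Pdx1, Ptf1a, Sox9, Nkx6-1, Onecut1 and Prox1 then mark the multipotent progenitors, in which Ptf1a comes to stand for the acinar lineage and Nkx6-1 for the ductal and endocrine one. None of these genes is confined to the pancreas. Mnx1 is also a gene of the notochord and of motor neurons, Ptf1a and Nkx6-1 of the neural tube, Sox9 of neural crest and cartilage, Prox1 of liver, lymphatic vessels and neurons, and Hhex of anterior endoderm, liver and early blood and vessel cells. The arrays measure whole cultures, so fewer cells of a type and less RNA per cell cannot be told apart in any value given here.

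Promoter sequences were at hand for 7 of the 9 genes, in 8 windows from RefSeq (build GRCm38.p6) that run from 250 bases before a start site to 50 after it. They were searched for what the genes share beyond their names. Those of Mnx1, Hhex and Onecut1 are shown because these genes differed 2-fold or more between the control arrays. They are written 5′ to 3′ on the strand of the gene, and capitals mark each CG dinucleotide. The window of Mnx1 is chr5:29478421-29478720 (minus strand), that of Hhex chr19:37434591-37434890 (plus strand) and that of Onecut1 chr9:74861671-74861970 (plus strand).
Mnx1: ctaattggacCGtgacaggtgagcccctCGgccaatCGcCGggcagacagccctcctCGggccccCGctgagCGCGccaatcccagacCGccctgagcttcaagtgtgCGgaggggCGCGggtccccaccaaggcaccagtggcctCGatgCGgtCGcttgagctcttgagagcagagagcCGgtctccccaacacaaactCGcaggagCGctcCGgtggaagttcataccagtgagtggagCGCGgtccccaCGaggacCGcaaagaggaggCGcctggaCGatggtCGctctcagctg
Hhex: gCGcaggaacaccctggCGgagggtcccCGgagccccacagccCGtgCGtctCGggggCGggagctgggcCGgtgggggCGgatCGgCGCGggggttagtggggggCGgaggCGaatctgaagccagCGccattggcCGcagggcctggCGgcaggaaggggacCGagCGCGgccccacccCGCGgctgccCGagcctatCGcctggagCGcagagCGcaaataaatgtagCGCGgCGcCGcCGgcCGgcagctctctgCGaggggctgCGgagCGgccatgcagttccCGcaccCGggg
Onecut1: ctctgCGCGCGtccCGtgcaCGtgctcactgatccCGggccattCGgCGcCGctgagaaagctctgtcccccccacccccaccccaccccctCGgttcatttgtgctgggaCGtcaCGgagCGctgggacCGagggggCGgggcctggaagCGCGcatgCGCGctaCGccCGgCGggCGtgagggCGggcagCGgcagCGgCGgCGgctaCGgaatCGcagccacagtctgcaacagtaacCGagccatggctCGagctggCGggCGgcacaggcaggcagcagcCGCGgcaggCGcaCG

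The Mnx1 window held 26 CG dinucleotides, that of Hhex 37 and that of Onecut1 38. Of all 32851 windows, 83.1% held fewer than that of Mnx1 and 94.4% fewer than that of Hhex. All 8 windows of the set lay above the median of 7 over all windows, with the window of Nkx6-1 the highest at 40 and that of Pdx1 the lowest at 11. Their GC content ran from 55.3% (Pdx1) to 75.7% (Hhex), against a median of 52.7%. Of 5 short motifs searched on both strands, none was found in any of the 8 windows. They were TGTTTAC (FOXA factors), ATCGAT and ATCAAT (ONECUT factors), TAATTA (homeodomain factors) and AGGTCA (a nuclear receptor recognition sequence). These letters are in 3.65%, 0.925%, 7.54%, 5.29% and 16.3% of all windows. Their absence says only that they are not in these 300 bases.

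The 5 arrays were scaled to the same trimmed mean of 500, and 46.7% to 51.9% of their probe sets lay above a floor of 86.8, the median of all probe sets that are not controls. Signals under the floor are treated as having no order, since a bacterial control target absent from the cells reached 59.4. A gene was measured in a comparison if at least 1 of both arrays was above the floor, and a fold against an array at the floor is written as "at least". Where a gene has several probe sets, the one with the highest mean signal stands for it. A sum over a list takes signals as deposited, those under the floor included, so part of a sum can be signal without order. Gapdh, whose 3'/5' ratio reflects RNA integrity, had a higher ratio on later arrays, from 1.08 at day 5 to 1.55 and 1.57 at day 8. That of Actb took another course, with 2.08 at day 5, 3.04 and 3.06 at day 6 and 2.81 and 2.71 at day 8. Their part in the differences between days was not tested.

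The plot of signals by day shows the 9 genes in all 5 cultures. Sox9, Onecut2, Mnx1 and Hhex were above the floor on all 5 arrays, as were 49.97% of all genes. Prox1 was above it on 4, Onecut1, Ptf1a and Nkx6-1 on 3 each and Pdx1 on 1. Each of the 9 was thus above the floor on at least 1 array, and Pdx1, the gene most used to define pancreatic progenitors, stayed at the floor or just above it.

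**Figure D1:**
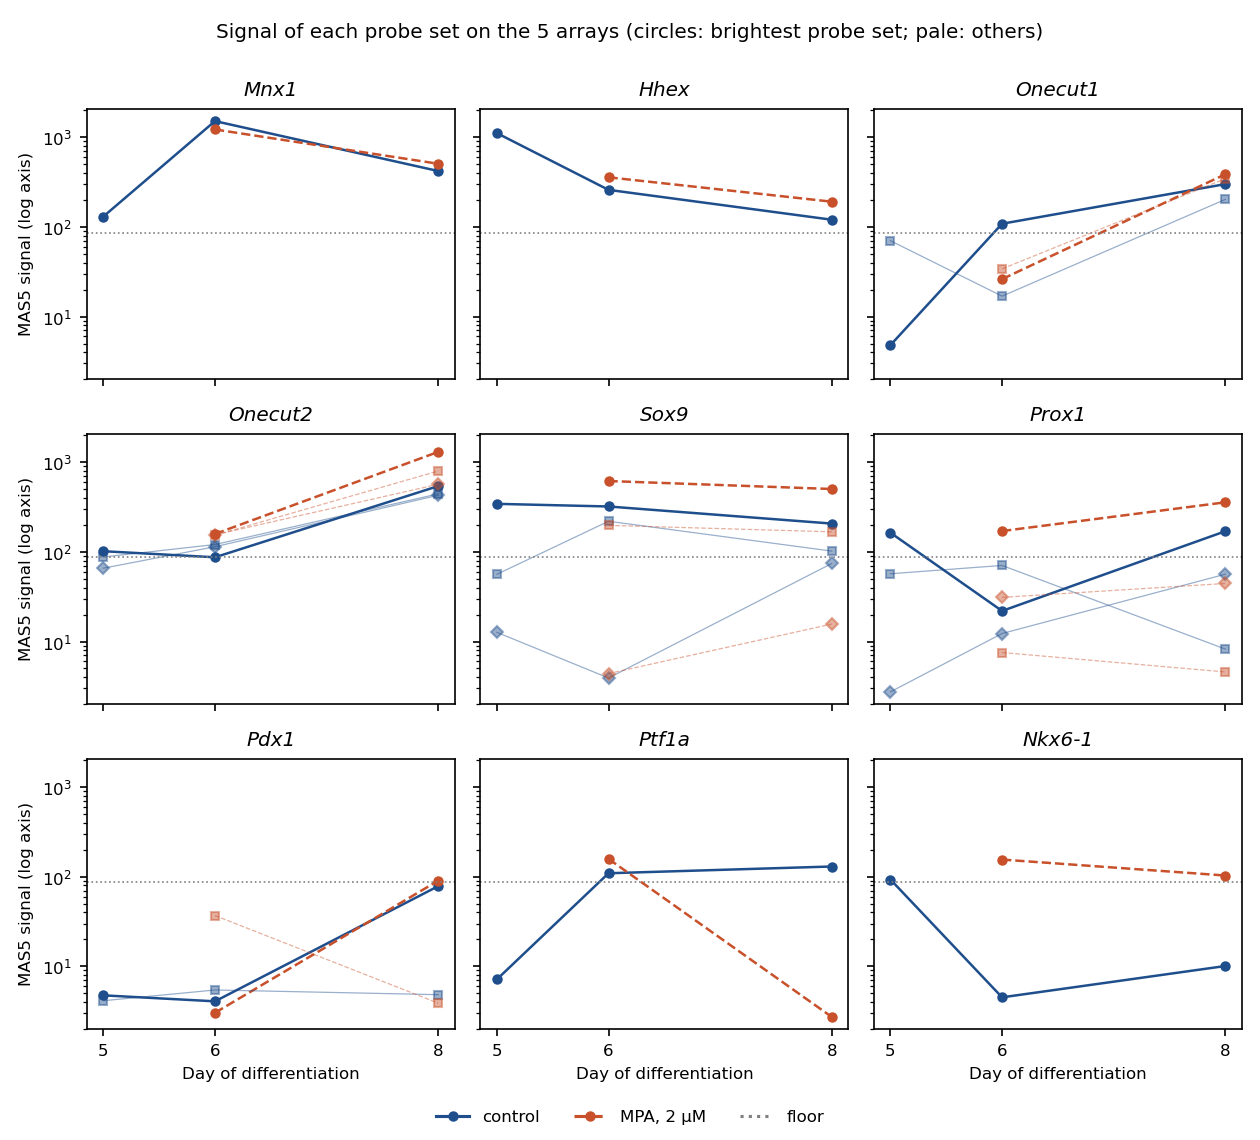
MAS5 signal (log axis) against day of differentiation for each probe set of the 9 genes, controls in blue with solid lines and MPA arrays in orange with dashed lines, 1 array per point; circles are the brightest probe set, pale squares and diamonds the others, and the dotted line is the floor of 86.8. Mnx1 peaks at day 6, Hhex is highest at day 5, both Onecut genes are highest at day 8, and Pdx1 exceeds the floor only at day 8 with MPA.

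In the controls, Mnx1 and Hhex had the largest differences of the set, in opposite directions, and the Onecut genes were higher at the last day. From day 5 to day 6, 1 of 8 measured factors was 2-fold or more higher (Mnx1) and 1 was 2-fold or more lower (Hhex), where 5.46% of all 12611 measured genes were higher and 4.4% lower by that much. From day 6 to day 8, 2 of 7 were higher (Onecut1 and Onecut2) and 2 lower (Mnx1 and Hhex), against 7.07% and 6.43% of 12824 genes. For day 8 against day 5, 3 of 8 were higher (Mnx1, Onecut1 and Onecut2) and 1 lower (Hhex), against 9.61% and 7.27% of 12784 genes. These 3 comparisons share arrays and are not independent, and the factors were listed with results of these arrays known.

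**Figure D2:**
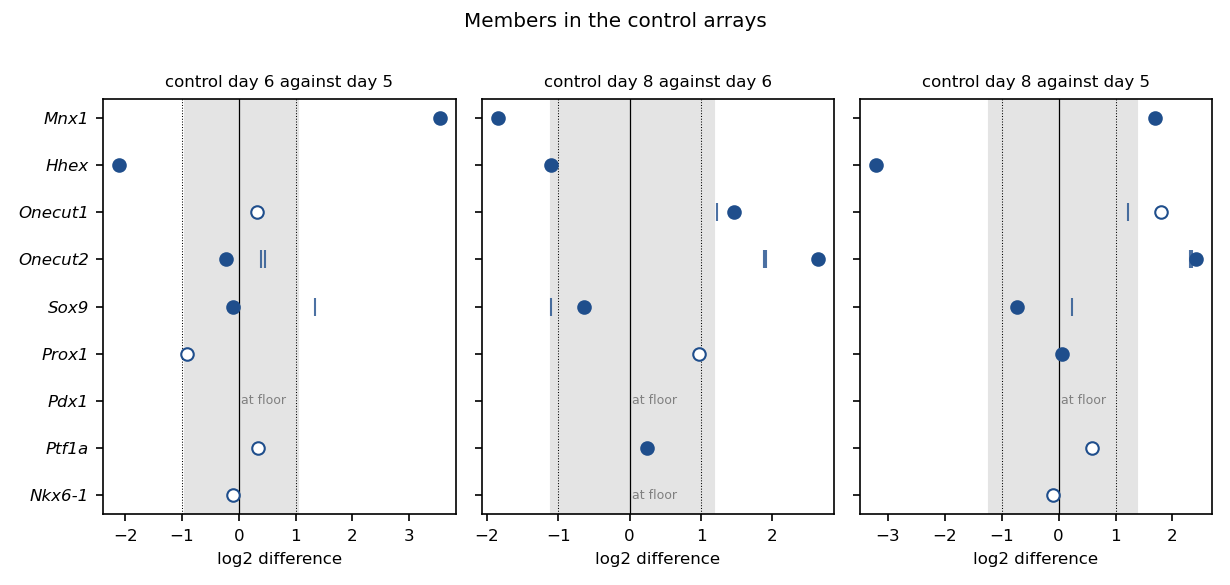
Log2 difference between control arrays for each of the 9 genes in 3 comparisons of days; circles are the brightest probe set, open where an array was at the floor (a bound), and ticks are the other measured probe sets. The grey band runs from the 5th to the 95th percentile of all measured genes, dotted lines mark 2-fold, and Mnx1, Hhex and the Onecut genes lie outside the band in at least 1 panel.

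Hhex, a homeobox gene of anterior definitive endoderm, had a signal of 1114 at day 5, 259.5 in the day 6 control and 120.5 in the day 8 control. It was lower at each later day, 4.29-fold at the first step and 2.15-fold at the second, and day 8 was 9.24-fold below day 5. With MPA it had signals of 358 at day 6 and 192 at day 8, above the control of each day. The order of the 5 cultures was the same for the summed signal of 9 definitive endoderm markers, which was 30380 at day 5. On day 6 the sum was 23173 with MPA and 19218 in the control, and on day 8 it was 14568 with MPA and 9866 in the control. Most of that sum on day 8 with MPA came from Epcam and Foxa2, with 8395 and 3635. The members did not share a direction: of 6 measured on day 8, 3 were higher and 3 lower with MPA, and the 2 that were 2-fold apart were lower, Sox17 with 1550 in the control against 485 and Cxcr4 with 457 against 70.7. Their part in the Hhex signal was not tested. The 9 endothelial and blood markers, another place of Hhex expression, summed to between 338 and 898, and 1 to 4 of them were above the floor on any array.

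Mnx1, a homeobox gene needed for the dorsal pancreatic bud, had a signal of 131 at day 5, 1518 in the day 6 control and 421 in the day 8 control. Its single probe set on day 6 was thus 11.6-fold above day 5, and day 8 was 3.60-fold below day 6. The MPA arrays followed the same course, with 1225 at day 6 and 508 at day 8, a 2.41-fold difference. Motor neurons also use Mnx1. A list of 12 motor neuron and ventral neural tube genes reaches beyond those cells. It summed to 2704, 6116 and 6902 in the controls of days 5, 6 and 8, and to 3151 and 4690 with MPA. Most of the sum in the controls was Irx3, with 1965, 5478 and 5651. Isl1, a motor neuron and endocrine gene, had 268, 244 and 617 there and 3249 with MPA on day 8. Slc18a3, of the same list, had 12.6, 6.40 and 147 in the controls and 3.43 and 99.6 with MPA. Isl2 was above the floor at day 5 (120) and on day 8 with MPA (99.9). Olig2, Lhx3, Lhx4, Chat and Dbx2 were below the floor on all 5 arrays. Of the 12 genes, 2 to 6 were above the floor on any array. The part of motor neurons in the Mnx1 signal was not tested. Shh, expressed by the notochord and also by endoderm, went the other way from Mnx1 at day 6, with 1828 at day 5 and 105 in the day 6 control. The notochord genes T and Noto were not analysed here.

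Onecut1, also called HNF6, acts upstream of Pdx1 and of endocrine progenitors, and Onecut2 is its paralogue. The brightest Onecut1 probe set had a signal of 4.81 at day 5, 109 in the day 6 control and 301 in the day 8 control. Day 8 was 2.77-fold above day 6 and at least 3.47-fold above day 5, and the second probe set was also higher at day 8. The brightest Onecut2 probe set had 102 at day 5, 87.0 in the day 6 control, just above the floor, and 542 in the day 8 control. That put day 8 at 6.22-fold above day 6, and all 3 probe sets went the same way at that step, with log2 differences from 1.88 to 2.64. From day 5 to day 6 the probe sets disagreed. The brightest was lower and the other 2 were higher, with log2 differences from -0.23 to 0.46.

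Sox9, which maintains the progenitor pool, and Prox1, a homeobox gene of pancreas and liver progenitors, differed less in the controls. The brightest Sox9 probe set had 343, 321 and 207 at days 5, 6 and 8, a difference of 1.66-fold from first to last. The second Sox9 probe set gave another picture, with 56.3, 220 and 102, and so was 1.34 higher on the log2 scale at day 6 than at day 5, where the first was at -0.10. The direction of Sox9 in the first control step is therefore not settled by these arrays. Prox1 had 163, 21.9 and 170 on its brightest probe set, low at day 6 only, while its other 2 probe sets stayed under the floor on all 5 arrays.

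The genes whose profile over the 5 arrays lay nearest to a factor were found as those with the smallest root mean square difference between mean-centred log2 signals, among 10840 candidate genes. For Mnx1 they were Ptges, Camk2n1 and Clic6 (differences of 0.25, 0.25 and 0.32). For Hhex they were Ppp1r14c, Klf9 and Erap1 (0.20, 0.21 and 0.21), and for Onecut2 they were Ahnak, Nexn and Ptprn2 (0.15, 0.18 and 0.22). Those of Onecut1 were F3, Edil3 and Parva (0.099, 0.10 and 0.11), and those of Prox1 were Lmo7, Marveld2 and Tnfrsf12a (0.094, 0.12 and 0.16). Within the set, Onecut1 ranked 101 in likeness to Onecut2 and Onecut2 ranked 1302 in likeness to Onecut1, and Hhex was far from Mnx1, at rank 10686. With 5 points a near match is a description only.

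MPA was compared with the control of the same day to ask which factors differed with the compound after 1 and after 3 days. At day 6, none of the 8 measured factors was 2-fold or more apart in either direction, where 4.02% of all 12240 measured genes were higher and 3.15% lower by that much. Of the 8, 6 were higher and 2 lower, with a median log2 difference of 0.69 against 0.02 for all genes, of which 51.5% were higher. With a lower floor, at the 25th percentile, Nkx6-1 and Prox1 were past 2-fold on the higher side at day 6 and Onecut1 on the lower side. At day 8, Sox9, Onecut2 and Prox1 were 2-fold or more higher and none of the 9 was 2-fold or more lower, against 3.72% and 3.18% of 12599 genes. Of the 9, 8 were higher and 1 lower, with a median of 0.36 against -0.02, and 48.1% of all measured genes were higher. Pdx1 (log2 difference 0.06) and Nkx6-1 (0.25) among the higher, and Ptf1a (-0.59), the lower one, had an array at the floor. The 3 differences of 2-fold rest on the brightest probe set: with all probe sets of a gene averaged the log2 differences were 0.66 for Sox9, 0.84 for Onecut2 and 0.36 for Prox1. Prox1 was also under 2-fold, at 0.79, with log2(signal + floor).

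**Figure D3:**
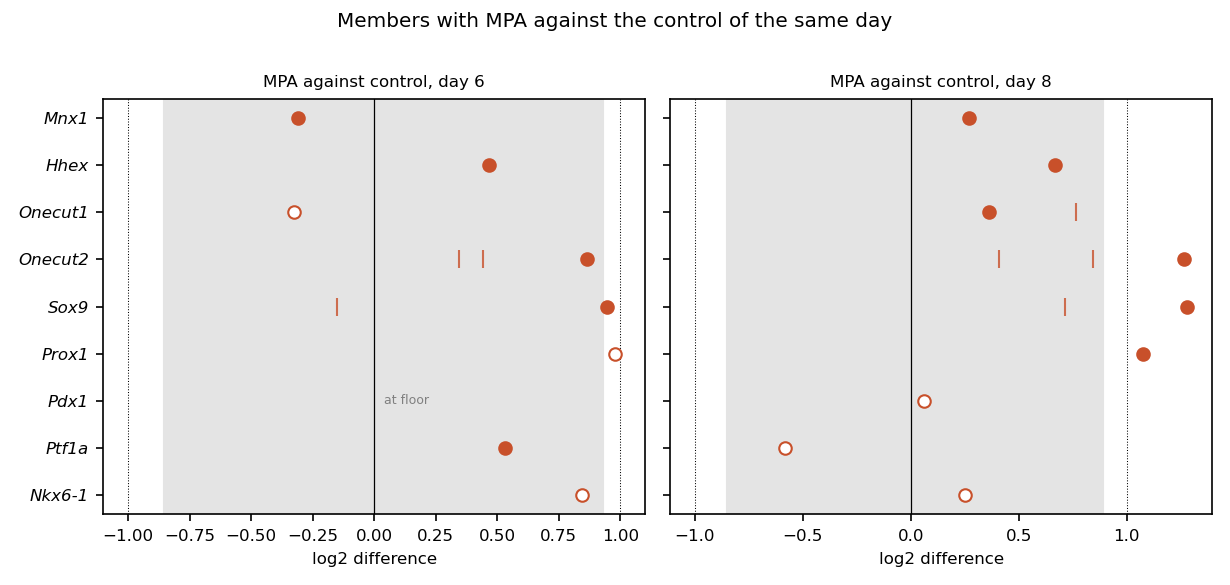
Log2 difference between the MPA and the control array at day 6 and at day 8 for each of the 9 genes; circles are the brightest probe set, open where an array was at the floor (a bound), and ticks are the other measured probe sets. The grey band runs from the 5th to the 95th percentile of all measured genes and dotted lines mark 2-fold; Sox9, Onecut2 and Prox1 lie to the right of 2-fold at day 8.

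Sox9 was higher with MPA at both days. Its brightest probe set had 321 in the day 6 control against 617 with MPA, and 207 in the day 8 control against 503 with MPA. The day 8 difference was 2.43-fold and the day 6 difference 1.92-fold. The second probe set was at 220 without and 198 with MPA at day 6 and at 102 and 167 at day 8, so both probe sets were higher at day 8 and they disagreed at day 6. Sox9 is also a gene of neural crest and cartilage. The 9 dorsal neural tube and neural crest markers summed to 1699 without and 1691 with MPA at day 6 and to 7355 and 976 at day 8. Most of the day 8 control sum was Zic1, with 4188, against 193 with MPA. Of 7 measured on that day, 6 were lower with MPA and 1 was higher. The 8 chondrogenic markers summed to 2477 and 2162 at day 6 and to 3284 and 2664 at day 8. Members of the crest list moved apart: Sox10 had 432 in the day 6 control against 761 with MPA, and 56.3 against 120 on day 8, and Msx1 had 130 against 362 on day 6 and 1004 against 108 on day 8. The part of these cells in the Sox9 signal was not tested.

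Onecut2 was 1.82-fold higher with MPA at day 6, with signals of 87.0 and 158. At day 8 it was 2.41-fold higher, with 542 and 1304. All 3 probe sets were higher at both days, by 0.34 to 0.86 (log2) on day 6 and by 0.41 to 1.27 on day 8, so the size depends on the probe set. Onecut1 had 301 without and 387 with MPA at day 8, a 1.29-fold difference, and its second probe set went the same way with 203 and 346. At day 6 its brightest probe set was above the floor in the control only.

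Prox1 was at least 1.97-fold higher with MPA at day 6, with 21.9 and 171, and 2.10-fold higher at day 8, with 170 and 357. This rests on 1 of 3 probe sets, the others being under the floor. The day 6 control was the lowest of its 5 arrays and the day 8 MPA array the highest. Neural cells also express Prox1 and Onecut2, and the 9 neural progenitor markers on the array summed to 5176 in the day 6 control against 2583 with MPA, and on day 8 to 13014 against 4160. The 8 endocrine progenitor markers summed to 955 in the day 6 control against 875 with MPA, and on day 8 to 4328 against 9778. The 8 hepatic markers summed to 1223 against 3987 on day 6 and to 1835 against 2255 on day 8. Ttr, of the carrier protein transthyretin, was 342 and 2415 of the day 6 sums and 1234 and 1742 of those of day 8. Of 5 hepatic markers measured on day 6, 4 were higher and 1 lower with MPA. Of 5 measured on day 8, 2 were higher and 3 lower, with a median log2 difference of -0.19. Of the lymphatic genes, Flt4 was at least 1.87-fold higher with MPA on day 6 and at least 2.57-fold on day 8, and Lyve1 was below the floor on all 5 arrays. Both are from the endothelial and blood list. Of its 5 genes measured on day 6, 4 were higher and 1 lower with MPA. Of 3 measured on day 8, 1 was higher (Flt4) and 2 were lower (Kdr and Lmo2). The part of any of these cells in the Onecut2 and Prox1 signals was not tested.

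Hhex was 1.38-fold higher with MPA at day 6 and 1.59-fold higher at day 8. Mnx1 was 1.24-fold lower with MPA at day 6 and 1.21-fold higher at day 8. The sizes for Hhex (log2 differences of 0.47 and 0.67) and for Mnx1 all lie within the 5th to 95th percentile of all genes. That range was -0.85 to 0.93 on the log2 scale at day 6 and -0.85 to 0.89 at day 8.

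The factors that stand for the committed progenitor were at the edge of detection. Pdx1 had signals of 4.75, 4.08 and 78.6 in the controls of days 5, 6 and 8. With MPA it had 3.04 on day 6 and 90.4 on day 8. Only the last is above the floor, and it lay above 49.3% of the probe sets on its array. No Pdx1 fold can be given between days in the controls, and at day 8 both arrays were close to the floor. The second Pdx1 probe set was under the floor on all 5 arrays, at 36.9 or less.

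Ptf1a, a bHLH factor that also marks the progenitors before it becomes acinar, had 7.18 at day 5. Its signal was 109 in the day 6 control and 158 with MPA, and it was 130 in the day 8 control and 2.73 with MPA. MPA thus went with a 1.45-fold higher signal on day 6 and a lower one on day 8, by a log2 difference of -0.59 or beyond. Nkx6-1, a homeobox gene of the later progenitors and of beta cells, had 93.1 at day 5. It was at 4.52 in the day 6 control against 156 with MPA, and at 10.1 in the day 8 control against 103 with MPA. Nkx6-1 was above the floor on both MPA arrays and under it on both controls of those days, at least 1.79-fold and at least 1.19-fold apart. For scale, absolute log2 differences with MPA were taken for all genes whose brighter signal was under 200. Their 90th percentile was 0.82 on day 6 and 0.80 on day 8. Raising signals to the floor caps these values, and variation between arrays and MPA cannot be told apart in them.

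From day 6 to day 8 within MPA, Onecut1, Onecut2 and Prox1 were 2-fold or more higher and Mnx1 2-fold or more lower, out of 9 measured factors, where 7.64% of 12257 genes were higher and 7.64% lower by that much. Onecut2 was 8.23-fold higher, from 158 to 1304, and Onecut1 at least 4.46-fold, from 26.2 to 387. In the controls the same step was 6.22-fold and 2.77-fold, and the difference between these steps was not tested.

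A limma fit then joined both days, on the 4 arrays from day 6 and day 8 with a term for the day. Its error starts from how far the MPA difference varied from day to day (1 residual degree of freedom), not from the spread among cultures. The eBayes step draws each gene's variation towards that of all genes, so an SE below is not only the factor's own. Of 11599 genes tested, 1 passed an adjusted p of 0.05 (Fgfbp3, 0.00862% of the genes), and none of the 8 factors tested did. The lowest among them was Sox9, with a log2 difference of 1.11 (SE 0.35) and an adjusted p of 0.647 by limma, higher at both days. Onecut2 followed with 1.07 (SE 0.38) and an adjusted p of 0.693, and Prox1 with 1.02 (SE 0.41) and 0.730. Those 3 were under an unadjusted p of 0.05, as were 739 of all genes (6.37%), and the other 5 were not.

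Other genes of the early pancreas were taken from a list of 22, of which 20 were on the array. At day 6 with MPA, 5 of 14 measured were higher and 9 lower, none by 2-fold, with a median of -0.06. At day 8, 13 of 18 were higher and 5 lower, with a median of 0.57. Of all measured genes, 51.5% were higher at day 6 and 48.1% at day 8. Of the 18 measured at day 8, Foxa1 and Nkx2-2 were 2-fold or more higher, and Glis3, named after its values were seen, was 2-fold or more lower. Of all measured genes, 3.72% were higher and 3.18% lower by that much at that day. Foxa2, a pioneer factor of the endoderm, had 1378 without and 2236 with MPA at day 6 and 1884 and 3635 at day 8. Gata6, a GATA factor of pancreas progenitors, had 2993 and 3447 at day 6 and 2693 and 4282 at day 8. In the controls Fgfr2, the receptor for the mesenchymal signal FGF10, was 11.9-fold higher on day 8 than on day 5, Foxa1 was 8.86-fold higher and Hes1, the Notch target, was 3.03-fold lower.

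The step after the progenitor was measured by the endocrine list, of which 8 of 13 genes were on the array. At day 8 with MPA, 5 of 7 measured were 2-fold or more higher and 1, Pax6, was 2-fold or more lower. Of all measured genes, 3.72% were higher and 3.18% lower by that much. Neurog3, the factor that starts endocrine fate, had 193 without and 1295 with MPA at day 8 and was under the floor on the 3 earlier arrays. Isl1 had 617 without and 3249 with MPA at day 8, and 244 and 112 at day 6. In the limma fit none of these genes passed over all genes. Acinar genes, the other outcome, were hardly seen: of 6 on the array, Cel, Ctrb1 and Cela2a were under the floor on all 5 arrays and none was 2-fold apart with MPA. The plot of directions at day 8 sets the 9 factors beside these lists and those of other cell types. In these, 8 of 8 neural progenitor and 6 of 7 dorsal neural genes were lower with MPA, as were 6541 of all 12599 measured genes.

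**Figure D4:**
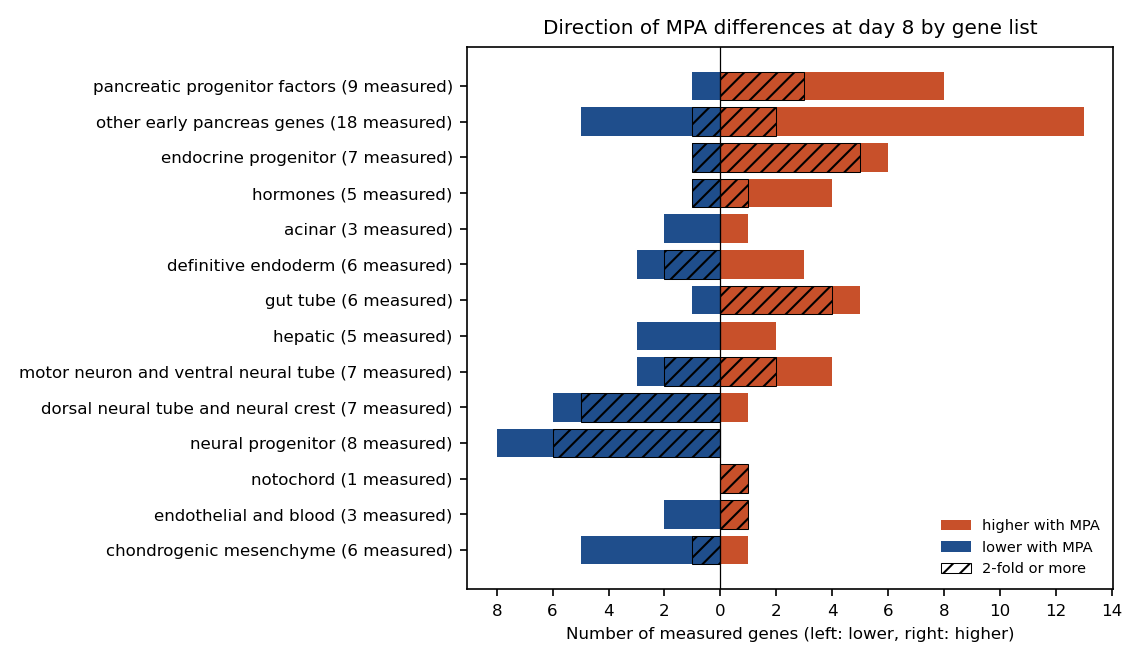
Number of measured genes higher (right, orange) and lower (left, blue) with MPA than in the control at day 8 for the 9 factors and 13 further lists, hatched where the difference was 2-fold or more; 1 array per group. Of the 9 factors 8 are higher and 1 is lower, and the neural progenitor list lies wholly on the lower side. The directions of Pdx1, Nkx6-1 and Ptf1a rest on an array at the floor.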

How the data were processed

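The 5 groups of 1 array each were taken from the labels. The authors deposited 1 linear signal intensity per probe set and array, made with MAS5 per the submitters' processing notes; no version, background step or filter is given in the sources used here. The arrays took cRNA carrying biotin, prepared from 100 ng of RNA per the labels' protocols. On a log scale MAS5 makes low signals noisy.

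Of 45101 probe sets, 64 controls, 932 with several gene symbols and 9160 unnamed here were left out. Of the rest, 34741 matched the RefSeq table (GRCm38.p6, names only) and 0 symbols needed updating. Signals under the floor (86.8) were raised to it and taken to log2. The limma fit (limma 3.58.1, R 4.3.3; lmFit, eBayes with trend and robust, Benjamini-Hochberg) took genes with 2 or more of the 4 arrays above the floor. The fit was tested on simulated data. Other steps used Python 3.11.15, numpy 2.4.6, pandas 2.3.3 and scipy 1.17.1.

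The factors and lists were chosen with earlier results of these data known. Named genes are all 9 factors and a set fixed by name. From each list come at most 4 by size of the mean MPA difference. At most 4 also come by size of the control difference from day 5 to day 8. The 3 nearest profiles are named for each factor with a log2 range of 2 or more. Not all of these are printed. Some printed genes fall outside this rule, among them Sox17, Epcam, Glis3, Isl2 and several listed as below the floor on all 5 arrays. Other settings tried were quantile normalization, median centring, a lower floor (25th percentile), a higher one (65th), log2(signal + floor), averaging a gene's probe sets, dropping those that end in _s_at, _x_at or _a_at, and for limma also other day terms, a plain eBayes and no filter.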

Additional observations from a re-analysis of the deposited data

Results flagged for a closer look

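For 3 factors the MPA difference had opposite signs at day 6 and day 8, with 1 array per group, and the difference between the days was not tested. Ptf1a went from higher to lower (log2 differences of 0.53 and -0.59, a change of -1.12), and its day 8 value is a bound, since the MPA array was at the floor. Onecut1 went from lower to higher (-0.33 and 0.36, a change of 0.69), with the day 6 MPA array at the floor. Mnx1 also went from lower to higher (-0.31 and 0.27, a change of 0.58), with all 4 arrays above the floor.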

How the results depend on the processing

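Of 49 measured differences of the 9 factors, the 17 of 2-fold or more kept their direction under all alternatives that gave a value, and so did 29 of the 32 smaller ones. Much of this was fixed in advance and is no test of the directions. A moved floor and log2(signal + floor) cannot reverse a direction. No probe set of the factors ends in _s_at, _x_at or _a_at, so dropping those changed none. Averaging left Ptf1a, Nkx6-1, Mnx1 and Hhex, with 1 probe set each, unchanged. The counts of factors past 2-fold moved with the floor. With a floor at the 25th percentile they were, for MPA at day 6, 2 higher and 1 lower (main 0 and 0), for MPA at day 8, 4 higher and 1 lower (3 and 0), for control day 6 against day 5, 3 higher and 3 lower (1 and 1), for control day 8 against day 6, 4 higher (2), for control day 8 against day 5, 5 higher and 2 lower (3 and 1), and for day 8 against day 6 within MPA, 2 lower (1). With log2(signal + floor) they were 2 higher for MPA at day 6, 2 higher and 1 lower for MPA at day 8, where Prox1 was no longer past 2-fold, 3 higher and 2 lower for control day 6 against day 5, 1 lower for control day 8 against day 6 and 2 lower within MPA. With a floor at the 65th percentile, control day 8 against day 6 gave 1 higher and 1 lower (2 and 2). Quantile normalization gave 1 higher for MPA at day 6, and the mean over probe sets gave 0 higher for MPA at day 8 (3), where Sox9, Onecut2 and Prox1 each have a dimmer probe set in the mean. The limma fit called 0 genes, in place of 1, under 6 alternatives: quantile normalization, averaged probe sets, a linear day, a fit that leaves the day out, a plain eBayes, and all genes unfiltered. The lowest adjusted p of any factor over its alternatives was 0.613. Pdx1, Ptf1a and Nkx6-1 are limited by signals near the floor.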

Other observations

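Genes of the gut tube beside the pancreas were also measured. Of 9 on the array, 6 were measured at day 8, and 5 of them were higher with MPA, 4 by 2-fold or more (median log2 difference 1.11). Of all measured genes, 48.1% were higher at that day and 3.72% by 2-fold or more. Vil1, of the brush border protein villin, had 93.6 without and 305 with MPA at day 8, and Osr1, a transcription factor of foregut and kidney mesoderm, 635 and 1358. Cdx2, which marks the intestinal endoderm behind the pancreas and also the tail end of the embryo, had 529 at day 5, 86.0 without and 228 with MPA at day 6, and 88.0 and 92.3 at day 8. The hormone gene Gcg, of glucagon, had 271 without and 2572 with MPA at day 8 and was under the floor on the 3 earlier arrays, and Ghrl, of ghrelin, had 2224 and 3415. Sst, of somatostatin, went the other way, with 727 without and 250 with MPA at day 8. Of 5 hormone genes measured at day 8, 1 was 2-fold or more higher and 1 was 2-fold or more lower, against 3.72% and 3.18% of all measured genes.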
